A study of Mus musculus with 12 samples.

Results

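The comparison described here is high glucose against normal glucose in the absence of CD200Fc, in BV2 cells, an immortalised mouse microglial line. It uses 6 of the 12 RNA sequencing libraries of the study, 3 from cells in normal glucose (NG) and 3 from cells in high glucose (HG), and describes all 19182 genes tested. The members were chosen by the treatment label alone. The other 6 libraries are 3 of each glucose level with CD200Fc at 50 ng/mL, a soluble form of the inhibitory ligand CD200 joined to an antibody's Fc region. They entered the same fit. The glucose contrast under CD200Fc is given beside a few genes only, mostly ones that passed in both contrasts. Of 186 printed genes counted near the end, 80 differed between the contrasts, and 25 of these had the opposite sign under CD200Fc. No genetic change is labelled in any group. The sources used here give neither the glucose concentrations nor the duration, and no osmotic control is among the 4 groups. Whether the 3 libraries of a group are separate cultures is not stated. The p-values therefore measure the spread between libraries only, and that spread may be technical.

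The source is labelled BV2, but the treatment protocol describes mouse retinas and sorting of GFP-positive cells. Of 21 microglia and macrophage markers, 19 had a mean of at least 1 CPM, the counts scaled to a common library total after TMM normalization, and *Sall1* was at 0. Their summed level was 8186 to 8642 CPM in NG and 8754 to 10521 CPM in HG. Of 23 retinal neuron and photoreceptor markers 3 reached 1 CPM, *Crx* and *Grm6* were at 0, and the list summed to 35.7 to 46.02 CPM. The 9 fibroblast markers summed to at most 1.81 CPM and the 13 T, B and NK cell markers to at most 7.13 CPM. Endothelial and mural markers summed to 408 to 426 CPM in NG and 447 to 457 CPM in HG, mostly from *Flt1*, which fell from 239 to 162 CPM, and *Vwf*, which rose from 142 to 237 CPM, both named after their values were seen, while *Rgs5* was at 0. Under CD200Fc *Flt1* passed in the opposite direction. Müller glia and astrocyte markers summed to 159.9 to 164 CPM in NG and 157 to 176 CPM in HG, with *Aqp4* at 0, and retinal pigment epithelium markers to 10.4 to 11.1 CPM in NG and 11.5 to 14.2 CPM in HG. Transcripts listed for RNA quality and nuclear RNA summed to 9015 to 10222 CPM in NG and 10919.5 to 15493 CPM in HG. The highest sum was in HG replicate 2. There *Lars2*, 1 of these transcripts, had 1656 CPM, against at most 66.4 CPM in any other NG or HG library. The part of these cells and of RNA quality in the results below was not tested. Library totals in NG and HG were 23934899 to 29161344 counts. HG replicate 2 stood apart because ribosomal RNA genes took 1.49% of its counts and no more than 0.119% elsewhere. The effect of leaving it out is given where it changes a count by more than 1.5 times.

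Microglia are the resident macrophages of the brain and retina. Glucose feeds their glycolysis, nucleotide and lipid synthesis, and macrophages that change state trade growth functions, such as making ribosomes and proteins, against functions at the surface and in the lysosome. Transcription factors of the Myc and Mxd family, nuclear receptors and clock factors link nutrients to these programmes in many cell types.

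Of the 19182 genes tested with edgeR's quasi-likelihood test, 4720 passed at a Benjamini-Hochberg adjusted p under 0.05, which is 24.6% of them. Those higher in HG were 2244 (11.7%) and those lower in HG were 2476 (12.9%). Of those that passed, 989 were higher and 260 lower by 1.5-fold or more, and 449 and 62 by 2-fold or more. In 4525 of the 4720 the HG and NG libraries did not overlap. Lack of overlap was also a condition for naming a gene that passed, so it adds no support where it is described below. The test against a minimum change of 1.2-fold called 754 genes higher (3.93%) and 321 genes lower (1.67%) at an adjusted p under 0.05. Without NG replicate 1 the genes passing higher numbered 1447, and those beyond 1.2-fold in either direction 592, against 1075 with all libraries and 697 without HG replicate 2. DESeq2 called 600 beyond 1.2-fold. The median log2 fold change over all genes tested was 0.0206. Of 14556 genes with a mean of at least 1 CPM, 2907 had a 95% interval of the fold change that lay wholly within 1.2-fold in either direction. In the authors' deposited table, which shares 14513 gene symbols with this fit, 4293 genes were called by both in the same direction and 0 in opposite directions.

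**Figure D1:**
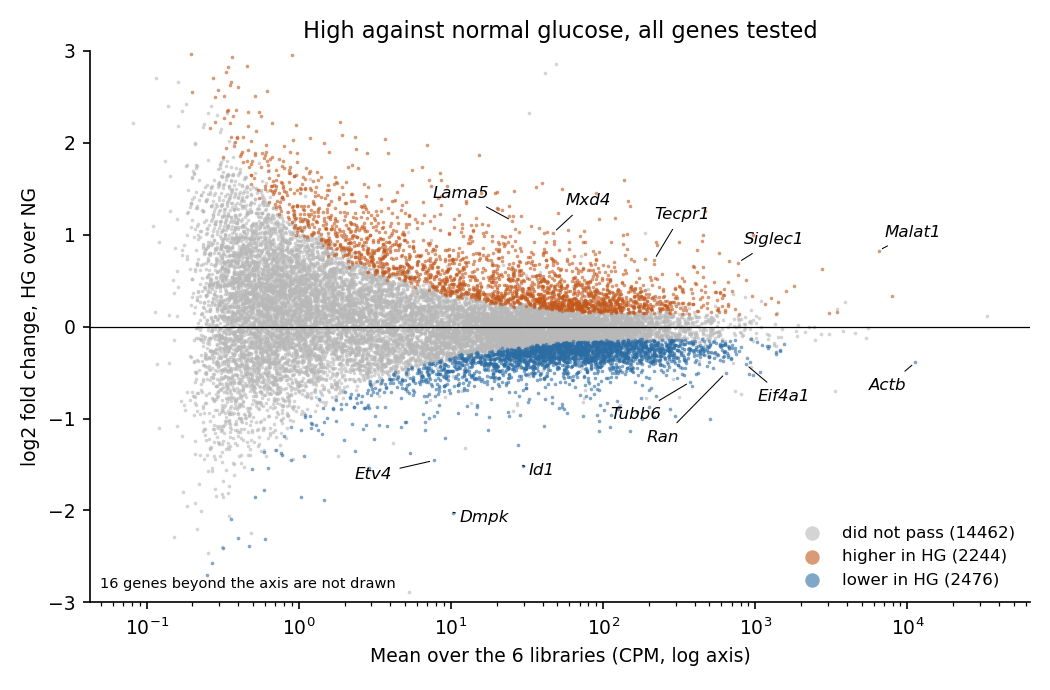
Log2 fold change of HG over NG (vertical axis) against the mean CPM over the 6 libraries (horizontal log axis), 1 point per gene, coloured by whether the gene passed. The 2476 lower genes sit mostly at small changes and high levels, the 2244 higher genes reach larger changes at low levels, and 16 genes lie beyond the vertical axis.

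The share of genes passing differed with gene type, level and length. Of 12820 protein-coding genes tested 14.4% rose and 17.2% fell, against 11.7% and 12.9% of all genes. The counts of the gene lists below are to be read against these shares. Among protein-coding genes of at least 1 CPM, the quartile with the highest mean CPM had 16.8% higher and 32.4% lower, against 15.4% and 3.76% in the lowest quartile. The quartile with the shortest exons had 9.87% higher and 26.5% lower, against 21.4% and 12.6% in the quartile with the longest. After correction of each library's trend on exon length and GC content, 35.0% of the passing genes were higher, against 47.5% in the comparison as reported. Where that correction, another setting or leaving out 1 library moved a list's count of 4 or more by over 1.5 times, the value is given in brackets after the count. Of 46 list counts of 1 to 3, 37 moved by that much under at least 1 of the 16 alternatives, so such counts are given as descriptions. A gene's call is named as lost where leaving out 1 library or another setting brought its adjusted p to 0.05 or above. This was checked for HG vs NG only, so a gene's call under CD200Fc is given without that check.

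Most translation factors tested fell. Of 58 tested initiation, elongation and termination factors, 37 fell and 2 rose, with a median log2 fold change of -0.22. *Eif4a1*, the helicase that unwinds the 5′ ends of messenger RNAs, had 1019.6, 942 and 998 CPM in the 3 NG libraries and 788, 706 and 735 CPM in the 3 HG libraries. All HG libraries lay below all NG libraries. Its log2 fold change was -0.41 ± 0.056 (SE), adjusted p = 3.99e-06. *Eif4g3*, a scaffold of the cap-binding complex, went the other way (266 to 337 CPM, log2 fold change 0.34 ± 0.093, adjusted p = 0.0151, lost without HG replicate 2 at adjusted p = 0.0753 and without NG replicate 1 at adjusted p = 0.0672). The most abundant member, the elongation factor *Eef1a1*, did not pass, with a log2 fold change of -0.12 (95% interval -0.22 to -0.018).

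Of 23 cytosolic tRNA synthetases and their scaffold proteins, 11 fell (4 without NG replicate 1, 5 without HG replicate 2, 6 without NG replicate 3, 7 with upper quartile scaling and 20 after length and GC correction) and 0 rose. The scaffold protein *Eef1e1* fell from 52.3 to 33.97 CPM on average (log2 fold change -0.62 ± 0.095 (SE), adjusted p = 4.01e-05). Of 37 tRNA-modifying enzymes 12 fell (20 after length and GC correction) and 0 rose. The methyltransferase *Trmt10a* had the lowest log2 fold change of these 12 (-0.59 ± 0.10 (SE), adjusted p = 0.000105).

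Nuclear transport genes that passed were all lower in HG. Of 56 nucleoporins, importins, exportins and Ran cycle proteins, 35 fell, 0 rose and 21 did not pass, with a median of -0.22. *Ran*, the GTPase that gives nuclear transport its direction, had 787, 719.7 and 745 CPM in NG and 580.1, 481 and 527 CPM in HG. The groups did not overlap, and HG replicate 2 was the lowest library. The log2 fold change was -0.50 ± 0.059 (SE), adjusted p = 4.57e-07. Its partner *Ranbp1* went from 95.1 to 63.04 CPM (log2 fold change -0.59 ± 0.072, adjusted p = 7.57e-07). The nucleoporin *Nup43* went from 19.1 to 12.6 CPM (log2 fold change -0.60 ± 0.098, adjusted p = 5.22e-05).

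RNA processing lists differed, with many lower genes among spliceosome proteins and hnRNPs and few among the miRNA machinery and the m6A list. The miRNA machinery had 4 higher (1 without NG replicate 3 and 2 without HG replicate 2 or NG replicate 1) and 2 lower of 15. The m6A list had 1 higher and 3 lower of 18. Among 58 core spliceosome proteins 28 fell (43 after length and GC correction) and 0 rose. *Snrpb*, a protein of the Sm ring around the spliceosomal RNAs, had 355, 320.1 and 350.2 CPM in NG and 282, 216 and 241 CPM in HG, with no overlap (log2 fold change -0.47 ± 0.071 (SE), adjusted p = 3.38e-05). The Sm protein *Snrpe* fell from 45.4 to 31.6 CPM (log2 fold change -0.52 ± 0.084, adjusted p = 4.13e-05). Of 51 SR proteins, hnRNPs and their kinases 24 fell, among them *Hnrnpab* (402 to 280.2 CPM, log2 fold change -0.52 ± 0.075, adjusted p = 2.67e-05) and the splicing factor *Srsf1* (265 to 207 CPM, log2 fold change -0.36 ± 0.055, adjusted p = 2.33e-05). Of the 3 that rose, *Clk2*, a kinase that phosphorylates SR proteins, had the largest change (34.4 to 48.5 CPM, log2 fold change 0.50 ± 0.091, adjusted p = 0.0002).

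Of 14 members of the RNA exosome, which trims and degrades RNA, 8 fell and 0 rose, such as *Exosc3* (23.02 to 17.2 CPM, log2 fold change -0.42 ± 0.089, adjusted p = 0.000804). RNA polymerase I and III genes had 16 lower and 3 higher of 41. *Znrd1*, a subunit of RNA polymerase I, had 18.8, 16.5 and 15.1 CPM in NG and 11.4, 12.6 and 10.05 CPM in HG (log2 fold change -0.57 ± 0.11 (SE), adjusted p = 0.000482). *Polr3gl*, which encodes an alternative subunit of RNA polymerase III, rose (19.7 to 26.7 CPM, log2 fold change 0.44 ± 0.098, adjusted p = 0.00158). RNA polymerase II and Mediator had 14 lower (23 after length and GC correction) and 0 higher of 51. The Mediator subunit *Med30* fell from 29.8 to 18.3 CPM (log2 fold change -0.71 ± 0.12, adjusted p = 0.000168), and the small polymerase subunit *Polr2f* from 88.4 to 60.6 CPM (log2 fold change -0.54 ± 0.084, adjusted p = 5.42e-05).

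Genes of protein folding and mitochondrial import were also lower where they passed. Of 25 genes of the chaperonin TRiC, prefoldin and HSP90 cochaperones, 19 fell and 0 rose (median -0.26). The prefoldin subunit *Pfdn4* fell from 16.8 to 11.4 CPM (log2 fold change -0.56 ± 0.13, adjusted p = 0.00204). *Ahsa1*, which stimulates the HSP90 ATPase, fell from 181 to 132 CPM (log2 fold change -0.45 ± 0.061, adjusted p = 4.42e-06). Of 39 genes of mitochondrial protein import 22 fell and 0 rose (median -0.28). *Tomm20*, the receptor of the outer membrane, had 189, 162 and 175 CPM in NG and 133, 113 and 132 CPM in HG. The groups did not overlap (log2 fold change -0.48 ± 0.071 (SE), adjusted p = 1.91e-05). *Chchd4*, which oxidises imported proteins in the intermembrane space, fell from 80.2 to 55.0 CPM (log2 fold change -0.54 ± 0.066, adjusted p = 6.64e-07), and its client the small chaperone *Timm10* from 26.6 to 18.9 CPM (log2 fold change -0.49 ± 0.096, adjusted p = 0.000361).

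**Figure D2:**
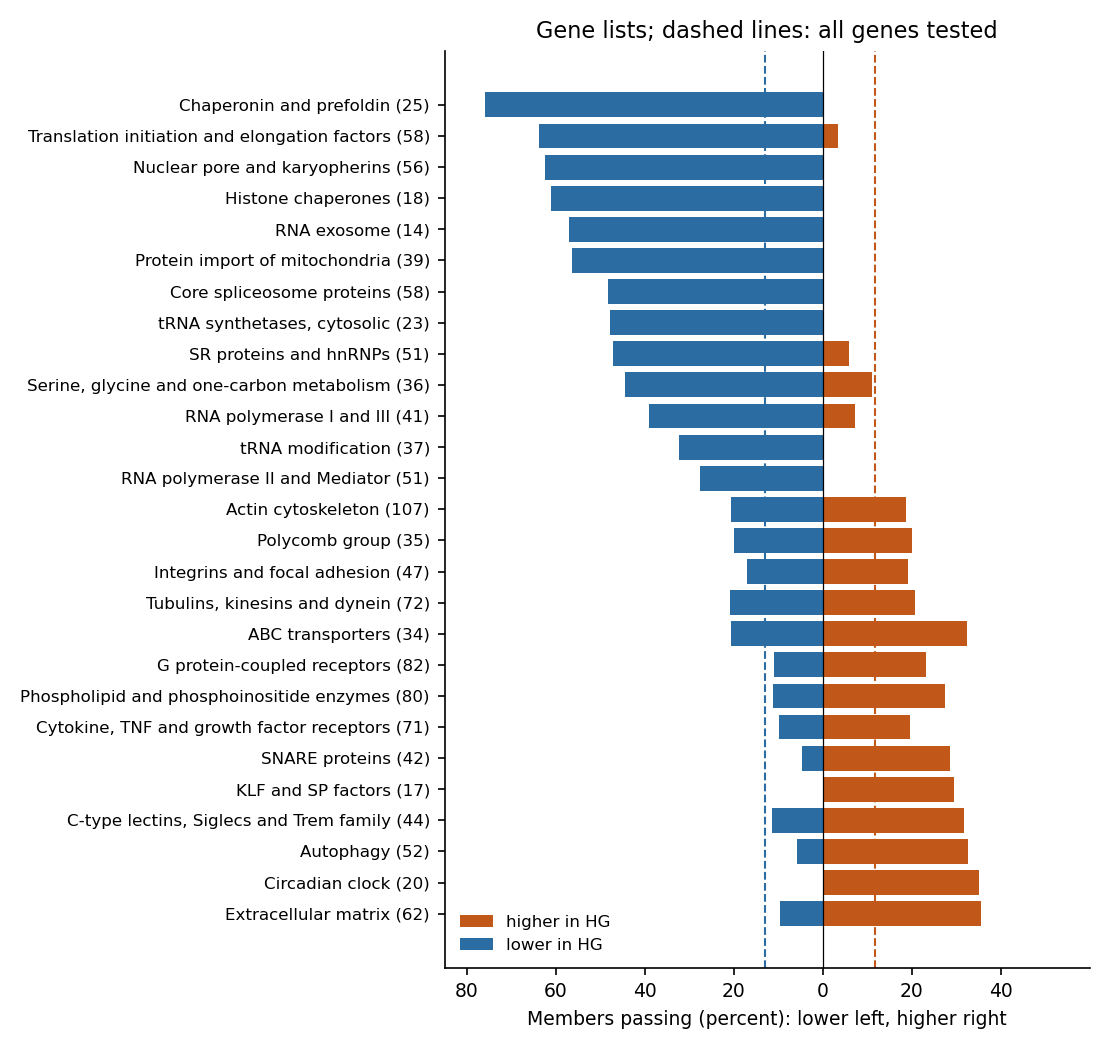
Share of the tested members of 27 gene lists (number tested in brackets) that passed lower in HG (bars to the left, percent) or higher in HG (bars to the right, percent). Dashed lines are the shares over all genes tested, 12.9% lower and 11.7% higher. The RNA, translation, nuclear transport and folding lists at the top lie past the left line, while the bottom lists lie past the right line. Among protein-coding genes of at least 1 CPM the share lower was 32.4% in the highest quartile of mean CPM. It was 26.5% in the quartile with the shortest exons, and some lists at the top are near these shares.

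The promoters of lower and higher genes were searched for short motifs on both strands, in RefSeq windows of 300 bases (250 before to 50 after the start, GRCm38.p6) matched by symbol for 10151 of 12811 protein-coding gene symbols tested, using the first window listed for a gene. The letters CCGGAAG, the core bound by many ETS factors, were in 18.1% of all these windows. They were in 22.7% of windows of lower genes and in 208 of 1483 windows of higher genes. In genes beyond 1.2-fold the share in lower genes was below that of all windows: the letters were in 30 of 219 windows of lower genes (13.7%) and 45 of 475 of higher genes (9.47%). Among whole lists, irrespective of change, they were in 16 of 34 windows of RNA polymerase I and III genes, in 15 of 34 of mitochondrial import genes, and in 19 of 46 of core spliceosome genes. Other lists with many lower genes were near or below the share of all windows, with 8 of 45 of nuclear pore and karyopherin genes, 7 of 46 of SR protein and hnRNP genes and 2 of 12 of RNA exosome genes. The list of mitochondrial DNA upkeep, of which 2 rose and 2 fell of 23, had the letters in 11 of 19 windows. The share of windows with these letters did not follow the share of lower genes in these lists. The E-box CACGTG, a palindrome bound by Myc, Mxd, USF and clock factors, was in 9.88% of all windows, in 12.4% of those of lower genes and in 8.43% of those of higher genes. In genes beyond 1.2-fold these shares were 15.1% and 6.95%. The TATA box TATAAA was in 7.57% of all windows, in 8.75% of those of lower genes and in 7.28% of those of higher genes. In genes beyond 1.2-fold its shares were 15.5% and 7.79%. A larger share in lower genes beyond 1.2-fold was therefore not particular to the E-box. A match is a description of letters, not of binding.

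The stretches of 250 bases before the start of *Polr2f* (chr15:79141075-79141324, plus strand), *Timm10* (chr2:84826771-84827020, plus strand) and *Ran* (chr5:129019906-129020155, plus strand) show how such matches lie in promoters of genes that fell. They are written 5′ to 3′ toward the gene start, with the searched letters in capitals, CCGGAAG or its reverse complement in *Polr2f* and *Timm10* and CACGTG in *Ran*.
Polr2f: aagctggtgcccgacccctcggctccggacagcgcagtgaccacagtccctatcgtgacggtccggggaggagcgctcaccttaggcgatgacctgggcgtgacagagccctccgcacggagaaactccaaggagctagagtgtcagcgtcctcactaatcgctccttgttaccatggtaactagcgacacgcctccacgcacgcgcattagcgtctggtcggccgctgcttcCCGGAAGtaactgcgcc
Timm10: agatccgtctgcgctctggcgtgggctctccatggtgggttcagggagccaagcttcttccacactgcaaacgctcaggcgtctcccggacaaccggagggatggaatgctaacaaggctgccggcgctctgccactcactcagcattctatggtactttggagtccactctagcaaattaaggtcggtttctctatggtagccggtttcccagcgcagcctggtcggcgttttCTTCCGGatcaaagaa
Ran: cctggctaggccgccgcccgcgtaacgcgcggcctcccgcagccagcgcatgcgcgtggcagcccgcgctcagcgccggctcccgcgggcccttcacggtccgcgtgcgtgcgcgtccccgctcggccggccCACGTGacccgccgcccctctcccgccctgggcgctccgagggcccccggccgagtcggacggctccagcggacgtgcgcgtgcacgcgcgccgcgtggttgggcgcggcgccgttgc

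Of 290 transcription factor genes tested in all factor lists together, 43 rose and 29 fell, which is 14.8% and 10.0%. Read against the protein-coding genes, of which 14.4% rose and 17.2% fell, the share that rose was alike and the share that fell was lower, and against all genes (11.7% and 12.9%) both were near. In the Myc, Max and Mondo network 2 of 10 rose and 0 fell, and both that rose are Mxd proteins, repressors that compete with Myc for Max. *Mxd4* had 31.5, 33.9 and 27.8 CPM in NG and 64.5, 61.1 and 63.6 CPM in HG. Each HG library had a level well above the highest NG library. The log2 fold change was 1.02 ± 0.084 (SE), adjusted p = 9.74e-10. *Mxd1* rose from 5.82 to 9.29 CPM (log2 fold change 0.67 ± 0.15, adjusted p = 0.00148). Their partner *Max* did not pass (log2 fold change 0.019, 95% interval -0.10 to 0.14).

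Of 26 nuclear receptors 5 rose (3 without HG replicate 1 or NG replicate 1) and 1 fell. *Thra*, the thyroid hormone receptor alpha, had 10.5, 11.8 and 11.4 CPM in NG and 18.5, 19.7 and 20.2 CPM in HG (log2 fold change 0.80 ± 0.10 (SE), adjusted p = 1.98e-06). It also passed in the glucose contrast under CD200Fc (0.33 ± 0.10, adjusted p = 0.0487). The contrast there was smaller, by a difference of 0.47 that passed the test of the difference. *Rarg*, a retinoic acid receptor, had 10.8, 16.2 and 15.3 CPM in NG and 25.97, 25.5 and 24.6 CPM in HG (log2 fold change 0.84 ± 0.11 (SE), adjusted p = 3.23e-06). The groups did not overlap for either gene. The fatty acid sensor *Ppard* rose from 21.2 to 30.1 CPM (log2 fold change 0.51 ± 0.094, adjusted p = 0.000207), and the orphan receptor *Nr2f6* fell from 21.6 to 16.1 CPM (log2 fold change -0.43 ± 0.099, adjusted p = 0.00212). *Rxra*, the shared partner of many of these receptors and the most abundant member that did not pass, had a log2 fold change of 0.026 (95% interval -0.085 to 0.14).

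Of 20 clock genes tested, 7 rose (4 without HG replicate 2 or NG replicate 1) and 0 fell, with a median log2 fold change of 0.15, and 13 did not pass. *Dbp*, an output factor that the clock drives directly, had 6.02, 4.93 and 5.48 CPM in NG and 9.38, 8.52 and 9.61 CPM in HG. The log2 fold change was 0.74 ± 0.15 (SE), adjusted p = 0.000574, and no library overlapped. *Per3*, a repressor of the clock loop, rose from 7.64 to 12.8 CPM (log2 fold change 0.74 ± 0.13, adjusted p = 0.000126), *Per2* from 3.52 to 5.33 CPM (log2 fold change 0.60 ± 0.22, adjusted p = 0.0498, lost in 7 of the 16 alternatives at an adjusted p of 0.0533 to 0.263, among them without HG replicate 1 or HG replicate 2 or HG replicate 3 or NG replicate 2 or NG replicate 3), and *Tef*, a relative of *Dbp*, from 44.9 to 56.9 CPM (log2 fold change 0.34 ± 0.066, adjusted p = 0.000362). *Ciart*, a repressor of the CLOCK complex, had 0.466, 1.37 and 1.46 CPM in NG and 1.78, 3.26 and 2.88 CPM in HG. Its NG libraries spread widely, with replicate 1 far below the others (log2 fold change 1.25 ± 0.34 (SE), adjusted p = 0.00782, lost without HG replicate 2 at adjusted p = 0.0515 and without NG replicate 1 at adjusted p = 0.073). The time of harvest is not stated.

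The E-box was in 5 of 16 clock gene windows (31.2%). Among the genes named above, the *Ciart* window holds 3 and the *Tef* window 1, while those of *Dbp* and *Per3* hold none. The 250 bases before the start of *Ciart* (chr3:95882229-95882478, minus strand) and *Tef* (chr15:81802423-81802672, plus strand) are shown with each CACGTG in capitals.
Ciart: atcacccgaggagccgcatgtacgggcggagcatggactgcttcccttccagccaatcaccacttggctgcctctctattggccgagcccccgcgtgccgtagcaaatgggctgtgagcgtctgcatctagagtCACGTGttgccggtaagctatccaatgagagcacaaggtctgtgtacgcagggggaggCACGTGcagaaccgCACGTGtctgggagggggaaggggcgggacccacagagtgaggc
Tef: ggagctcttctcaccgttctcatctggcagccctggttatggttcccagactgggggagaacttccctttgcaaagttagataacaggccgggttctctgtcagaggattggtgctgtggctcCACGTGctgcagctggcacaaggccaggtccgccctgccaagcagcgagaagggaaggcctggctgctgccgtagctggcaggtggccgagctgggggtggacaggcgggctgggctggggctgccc

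KLF and SP factors, which bind GC-rich promoters, had 5 of 17 higher and 0 lower (median 0.23). *Klf3*, a repressor, had 19.03, 17.8 and 20.8 CPM in NG and 28.3, 29.5 and 27.2 CPM in HG, with no overlap (log2 fold change 0.56 ± 0.091 (SE), adjusted p = 4.89e-05). *Klf7* (log2 fold change 0.49 ± 0.083, adjusted p = 8.09e-05), *Klf11* (log2 fold change 0.45 ± 0.12, adjusted p = 0.00864, lost without HG replicate 3 at adjusted p = 0.0735 and without NG replicate 3 at adjusted p = 0.0737) and *Klf13* (log2 fold change 0.25 ± 0.061, adjusted p = 0.00338) rose too. Of 43 homeobox factors 8 rose (4 without NG replicate 3, 5 without HG replicate 3 and 5 after length and GC correction) and 1 fell. *Pou2f2*, a factor of B cells and macrophages also named Oct2, had 125, 141 and 126 CPM in NG and 176, 226 and 200.2 CPM in HG (log2 fold change 0.62 ± 0.14 (SE), adjusted p = 0.00893). *Pou6f1* (log2 fold change 0.75 ± 0.099, adjusted p = 2.35e-06), *Zfhx2* (log2 fold change 0.75 ± 0.13, adjusted p = 0.000226) and *Hoxc10* (log2 fold change 0.94 ± 0.23, adjusted p = 0.00342) rose, and *Meis1*, a partner of Hox proteins, fell (log2 fold change -0.34 ± 0.11, adjusted p = 0.0278, lost in 4 of the 16 alternatives at an adjusted p of 0.0505 to 0.118, among them without HG replicate 3 or NG replicate 2 or NG replicate 3).

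Myeloid identity factors were mostly below the threshold. Of 34 tested 4 rose (2 without HG replicate 1) and 1 fell. *Spi1*, which encodes the master factor PU.1, did not pass, with 559.6, 523 and 542 CPM in NG and 545, 480.4 and 528 CPM in HG (log2 fold change -0.065, 95% interval -0.18 to 0.045). *Maf*, a factor of tissue macrophages, had 110.0, 109 and 107 CPM in NG and 136, 142 and 149 CPM in HG (log2 fold change 0.39 ± 0.059 (SE), adjusted p = 1.61e-05). *Cebpa*, a factor of early myeloid cells, went from 78.5 to 63.4 CPM (log2 fold change -0.31 ± 0.093, adjusted p = 0.0204, lost in 3 of the 16 alternatives at an adjusted p of 0.0658 to 0.0888, among them without HG replicate 2 or NG replicate 2). Among bZIP factors 7 of 35 rose and 4 fell (2 without HG replicate 2 and 9 after length and GC correction), with *Creb5* rising from 41.8 to 64.7 CPM (log2 fold change 0.63 ± 0.15, adjusted p = 0.00965). The forkhead factor *Foxk1*, known as an activator of glycolysis genes, rose from 96.5 to 120.3 CPM (log2 fold change 0.32 ± 0.077, adjusted p = 0.0039). The cytokine signal transducer *Stat3* rose from 100.03 to 122 CPM (log2 fold change 0.29 ± 0.054, adjusted p = 0.000238).

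The largest falls among factors were in *Id1* and *Etv4*. *Id1*, an inhibitor of basic helix-loop-helix factors, had 47.97, 40.2 and 43.3 CPM in NG and 16.5, 13.8 and 15.8 CPM in HG. The highest HG library was below the lowest NG library (log2 fold change -1.51 ± 0.088 (SE), adjusted p = 1.03e-12). Under CD200Fc the glucose contrast for *Id1* also passed, at -0.45 ± 0.084 (adjusted p = 0.00272). It was smaller in size there, and the difference of -1.07 passed the test of the difference. *Id3* fell from 3.75 to 2.23 CPM (log2 fold change -0.74 ± 0.22, adjusted p = 0.0138, lost without HG replicate 2 at adjusted p = 0.0675 and without NG replicate 1 at adjusted p = 0.0748). *Etv4*, an ETS factor induced by ERK signalling, had 12.3, 10.8 and 10.8 CPM in NG and 3.49, 4.66 and 4.22 CPM in HG (log2 fold change -1.46 ± 0.14 (SE), adjusted p = 1.15e-08). Of 16 ETS factors 2 rose and 5 fell. *Tfap4*, a helix-loop-helix factor driven by Myc, fell from 22.6 to 16.1 CPM (log2 fold change -0.49 ± 0.089, adjusted p = 0.000184). The NF-Y subunits *Nfyb* (log2 fold change -0.36 ± 0.086, adjusted p = 0.00296) and *Nfyc* (log2 fold change -0.35 ± 0.079, adjusted p = 0.00184), which bind CCAAT boxes, fell. CCAAT was in 39.2% of all promoter windows, in 41.0% of those of lower genes and in 36.5% of those of higher genes. In genes beyond 1.2-fold the shares with CCAAT were 48.4% of lower and 37.3% of higher genes. The E-box and the TATA box were also more frequent in lower genes beyond 1.2-fold than in all windows. Of 13 E2F and pocket protein genes 5 fell (3 with upper quartile scaling, 8 with a replicate block and 9 after length and GC correction) and 0 rose. *E2f5* had the largest change of these, from 5.85 to 3.68 CPM (log2 fold change -0.67 ± 0.19, adjusted p = 0.00988, lost without HG replicate 2 at adjusted p = 0.0761).

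**Figure D3:**
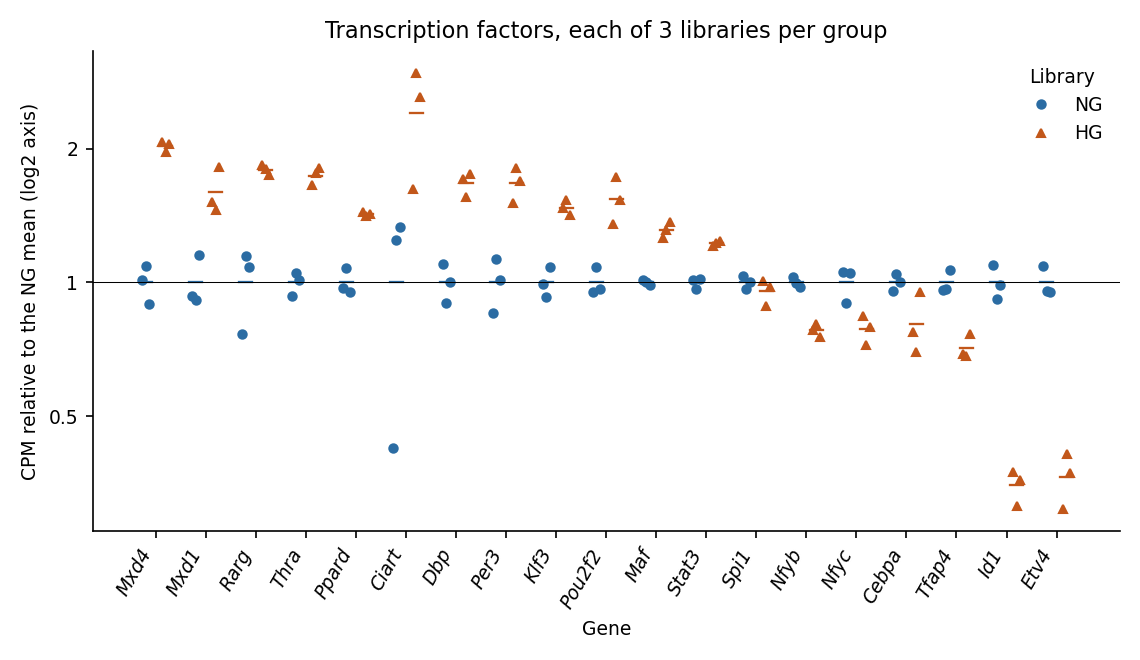
Level of 19 transcription factor genes in each NG library (circles) and each HG library (triangles), as CPM divided by the NG mean on a log2 axis, with group means as short lines. From *Mxd4* to *Stat3* the groups do not overlap and HG lies higher, *Spi1* overlaps, and from *Nfyb* to *Etv4* HG lies lower, with *Id1* and *Etv4* at the bottom. Genes that passed were named only if their groups did not overlap.

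Chromatin genes passed in both directions, with 36 higher and 48 lower of 224, or 16.1% and 21.4%, near the 14.4% and 17.2% of protein-coding genes. Histone chaperones that passed were all lower: of 18 tested 11 fell and 0 rose (median -0.23). *Set*, an inhibitor of histone acetylation, had 635, 591 and 614 CPM in NG and 459, 418 and 468 CPM in HG, with no overlap (log2 fold change -0.45 ± 0.054 (SE), adjusted p = 5.19e-07). The nucleoplasmin relative *Npm3* (log2 fold change -0.54 ± 0.10, adjusted p = 0.000309) and *Asf1b* (log2 fold change -0.40 ± 0.066, adjusted p = 5.14e-05), which hands histones to the replication fork, fell as well. Among 61 histone and protein arginine methylation enzymes 12 rose and 10 fell. *Kdm5b*, a demethylase of lysine 4 on histone H3, had 8.14, 7.90 and 8.16 CPM in NG and 16.2, 15.8 and 15.9 CPM in HG (log2 fold change 0.98 ± 0.11 (SE), adjusted p = 3.36e-07). *Prmt1*, the main arginine methyltransferase, fell from 206 to 146 CPM (log2 fold change -0.50 ± 0.066, adjusted p = 2.96e-06).

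Polycomb genes, which silence developmental genes, had 7 higher (3 without HG replicate 2 and 4 without NG replicate 1 or NG replicate 3) and 7 lower (11 after length and GC correction) of 35. Of those lower, *Ezh2*, the methyltransferase of the complex in dividing cells, had 55.4, 51.8 and 53.2 CPM in NG and 42.4, 44.97 and 37.5 CPM in HG (log2 fold change -0.36 ± 0.070 (SE), adjusted p = 0.00036). The complex members *Epop* (log2 fold change -0.56 ± 0.088, adjusted p = 3.09e-05) and *Bmi1* (log2 fold change -0.35 ± 0.066, adjusted p = 0.000282) fell, and *Phc3* rose (log2 fold change 0.32 ± 0.073, adjusted p = 0.00159). DNA methylation genes had 3 higher and 5 lower of 20, with the cofactor *Dnmt3l* at 14.6 and 9.50 CPM (log2 fold change -0.61 ± 0.13, adjusted p = 0.000945), while the maintenance enzyme *Dnmt1* did not pass (log2 fold change 0.0070, 95% interval -0.098 to 0.11). Among histone acetylation genes 7 rose (4 without NG replicate 1 or NG replicate 3) and 6 fell (2 with upper quartile scaling, 3 without NG replicate 3 and 15 after length and GC correction) of 40. The deacetylase *Hdac7* rose (log2 fold change 0.37 ± 0.085, adjusted p = 0.00309), the acetyl reader *Yeats4* fell (log2 fold change -0.42 ± 0.087, adjusted p = 0.000736), and the acetyltransferase *Ep300* did not pass (log2 fold change 0.10, 95% interval -0.029 to 0.24). In the lamina list 2 rose and 6 fell of 18, with lamin *Lmnb1* going from 115 to 82.1 CPM (log2 fold change -0.48 ± 0.061, adjusted p = 1.19e-06).

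Surface receptors and genes that act with them were more often higher. The lists of G protein-coupled receptors, of G protein regulators and arrestins, of lectins and of tetraspanins together held 209 tested genes. Of these 53 rose (25.4%) and 23 fell (11.0%). Cytokine, TNF and growth factor receptors, which are not among the 209, had 14 higher and 7 lower of 71. *Il10ra*, the ligand-binding chain of the receptor for the anti-inflammatory cytokine IL-10, had 34.8, 35.99 and 36.03 CPM in NG and 57.9, 58.1 and 58.4 CPM in HG. The spread within each group was small beside the distance between them (log2 fold change 0.71 ± 0.065 (SE), adjusted p = 6.47e-09). *Csf2rb2*, a beta chain of the IL-3 receptor with a close paralogue that could share its reads, had 87.2, 92.7 and 89.2 CPM in NG and 139.8, 153 and 144 CPM in HG (log2 fold change 0.70 ± 0.059 (SE), adjusted p = 1.39e-09). *Tnfrsf8*, the receptor CD30, rose at a low level (2.10 to 4.33 CPM, log2 fold change 1.05 ± 0.25, adjusted p = 0.00246). *Tnfrsf12a*, the receptor of TWEAK, fell from 32.7 to 19.96 CPM (log2 fold change -0.71 ± 0.11, adjusted p = 1.51e-05), and *Il13ra2*, a decoy receptor of IL-13, from 2.33 to 0.620 CPM (log2 fold change -1.89 ± 0.34, adjusted p = 0.000175). *Csf1r*, the survival receptor of microglia, did not pass, with a log2 fold change of 0.057 (95% interval -0.051 to 0.16).

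C-type lectins, Siglecs and Trem family genes had 14 higher and 5 lower of 44. The 5 were 3 without HG replicate 2 or NG replicate 2, 8 with a replicate block, 9 without HG replicate 1 and 9 with limma. *Siglec1*, a sialic acid receptor of macrophages, had 566, 596 and 601 CPM in NG and 936, 964 and 955 CPM in HG (log2 fold change 0.70 ± 0.052 (SE), adjusted p = 1.49e-10). *Cd300lf*, a receptor with an inhibitory tail that binds phospholipids, had 40.6, 45.3 and 42.7 CPM in NG and 74.8, 79.8 and 75.5 CPM in HG (log2 fold change 0.84 ± 0.070 (SE), adjusted p = 1.26e-09). The HG libraries of both were above all NG libraries. The C-type lectins *Clec4a1* (log2 fold change 0.74 ± 0.069, adjusted p = 9e-09) and *Clec10a* (log2 fold change 0.96 ± 0.23, adjusted p = 0.00302) rose. *Clec5a*, a lectin that signals through DAP12, fell from 46.7 to 28.3 CPM (log2 fold change -0.72 ± 0.085, adjusted p = 4.65e-07). In the tetraspanin and Ms4a list 9 rose (5 without NG replicate 2) and 4 fell (7 after length and GC correction) of 29. *Ms4a14* had 24.6, 30.8 and 25.3 CPM in NG and 46.9, 64.5 and 51.9 CPM in HG, with no overlap (log2 fold change 1.01 ± 0.10, adjusted p = 1.93e-07).

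G protein-coupled receptors had 19 higher and 9 lower of 82. *Adgre1*, the adhesion receptor F4/80, had 420.4, 414 and 419.9 CPM in NG and 768, 709 and 711 CPM in HG, with all HG libraries higher (log2 fold change 0.80 ± 0.060 (SE), adjusted p = 1.49e-10). *Fpr1*, the receptor of formylated bacterial peptides, rose from 7.01 to 18.1 CPM (log2 fold change 1.37 ± 0.14, adjusted p = 4.03e-08), and the proton-sensing *Gpr4* from 1.64 to 3.47 CPM (log2 fold change 1.08 ± 0.26, adjusted p = 0.00299). Downstream of these receptors, 11 of 54 regulators of G proteins, arrestins and cyclic nucleotide enzymes rose (6 after length and GC correction and 7 without NG replicate 1) and 5 fell (8 without HG replicate 1, 9 with limma and 10 after length and GC correction). *Rgs11* rose (8.07 to 14.6 CPM, log2 fold change 0.85 ± 0.13, adjusted p = 1.69e-05) and *Rgs1* fell (4.54 to 2.16 CPM, log2 fold change -1.07 ± 0.21, adjusted p = 0.000352), both GTPase accelerators. *Pde1b*, a calcium-dependent phosphodiesterase of cyclic nucleotides, rose from 38.3 to 61.8 CPM (log2 fold change 0.69 ± 0.080, adjusted p = 3.99e-07).

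Signalling genes below the receptors passed in both directions. Of 303 tested in all signalling lists, cytokine ligands and receptors among them, 55 rose (18.2%) and 44 fell (14.5%). These shares are near the 14.4% and 17.2% of protein-coding genes. Higher and lower shares were 26.3% and 18.4% in the PI3K, AKT and insulin list. They were 11.3% and 21.1% in the MAP kinase list and 26.7% and 10.0% in the Notch list. In the PI3K, AKT and insulin list 10 rose (5 without NG replicate 3, 6 without HG replicate 3 or NG replicate 1 and 6 after length and GC correction) and 7 fell of 38. *Pik3r5*, the regulatory subunit of the PI3K that G protein-coupled receptors activate, had 232, 256 and 252 CPM in NG and 353, 371 and 372 CPM in HG (log2 fold change 0.57 ± 0.054 (SE), adjusted p = 1.52e-08). Its paralogue *Pik3r6* rose from 22.9 to 35.03 CPM (log2 fold change 0.62 ± 0.086, adjusted p = 5.69e-06). The insulin receptor gene *Insr* rose (52.4 to 68.6 CPM, log2 fold change 0.39 ± 0.063, adjusted p = 4.78e-05). *Igf1*, a growth factor that microglia secrete, had 139, 132 and 133 CPM in NG and 87.3, 88.8 and 89.7 CPM in HG, all lower in HG (log2 fold change -0.60 ± 0.054 (SE), adjusted p = 4.1e-09). Under CD200Fc the contrast for *Igf1* passed too (-0.30 ± 0.053, adjusted p = 0.00231). It was smaller in size there, and the difference of -0.31 passed the test of the difference.

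In the MAP kinase list 8 rose (5 without NG replicate 1 or NG replicate 2 or NG replicate 3 and 5 after length and GC correction or without the low-count filter) and 15 fell of 71. The ERK scaffold *Ksr1* rose (27.6 to 40.5 CPM, log2 fold change 0.55 ± 0.090, adjusted p = 5.15e-05), as did the small GTPase *Rras* (15.9 to 29.7 CPM, log2 fold change 0.90 ± 0.11, adjusted p = 4.28e-07). The stress kinase *Map3k20* fell (387 to 271 CPM, log2 fold change -0.51 ± 0.054, adjusted p = 6.95e-08), and so did *Dusp6*, a phosphatase that ERK induces and that switches ERK off (27.8 to 20.3 CPM, log2 fold change -0.45 ± 0.098, adjusted p = 0.00121). Notch genes had 8 higher (5 without HG replicate 3) and 3 lower of 30. The receptor *Notch1* had 52.4, 54.4 and 57.1 CPM in NG and 74.3, 84.6 and 85.7 CPM in HG (log2 fold change 0.58 ± 0.085 (SE), adjusted p = 3.28e-05), and *Rbpj*, the DNA-binding partner of Notch, went from 116 to 158 CPM (log2 fold change 0.45 ± 0.057, adjusted p = 1.64e-06). The ligand *Jag1* went the other way, with 56.7, 48.0 and 51.9 CPM in NG and 30.8, 28.03 and 31.9 CPM in HG (log2 fold change -0.79 ± 0.084 (SE), adjusted p = 1.02e-07). In the Wnt and Hippo list 6 rose and 8 fell (5 without NG replicate 3 and 5 with upper quartile scaling) of 45, shares of 13.3% and 17.8% that are near those of protein-coding genes. The Wnt target *Axin2* (5.60 to 8.75 CPM, log2 fold change 0.64 ± 0.14, adjusted p = 0.00153) and the corepressor *Tle2* (0.829 to 2.24 CPM, log2 fold change 1.43 ± 0.35, adjusted p = 0.0036) rose.

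Extracellular matrix genes had the highest share of higher members among the lists shown in the plot of gene lists: 22 of 62 tested rose and 6 fell (median 0.30, or 0.21 after length and GC correction). The list has 114 names, so the other 52 were too low to be tested. *Lama5*, a laminin chain of basement membranes, had 12.9, 16.98 and 17.1 CPM in NG and 32.7, 36.3 and 35.5 CPM in HG (log2 fold change 1.15 ± 0.11 (SE), adjusted p = 2.95e-08). It also passed under CD200Fc (0.41 ± 0.11, adjusted p = 0.0245). The contrast there was smaller, by a difference of 0.74 that passed the test of the difference. The basement membrane proteoglycan *Agrn* had 12.6, 14.7 and 15.3 CPM in NG and 24.3, 26.4 and 29.8 CPM in HG (log2 fold change 0.92 ± 0.11 (SE), adjusted p = 7.47e-07). The groups of both genes were apart. The collagens *Col7a1* (4.98 to 9.27 CPM, log2 fold change 0.89 ± 0.18, adjusted p = 0.000446) and *Col11a2* (2.96 to 5.54 CPM, log2 fold change 0.90 ± 0.24, adjusted p = 0.00643, lost without NG replicate 1 at adjusted p = 0.0661) rose at low levels, and the syndecan *Sdc2* fell (27.2 to 20.1 CPM, log2 fold change -0.44 ± 0.093, adjusted p = 0.000885). The 9 fibroblast markers, which summed as given above to at most 1.81 CPM in any NG or HG library, include the interstitial collagens *Col1a1*, *Col1a2* and *Col3a1*.

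In the semaphorin and plexin list 7 rose and 3 fell of 28. *Plxnc1* had 29.9, 30.8 and 30.6 CPM in NG and 50.5, 56.2 and 53.5 CPM in HG (log2 fold change 0.81 ± 0.072 (SE), adjusted p = 3.65e-09). *Plxnd1* had 588, 656 and 631 CPM in NG and 859, 946 and 953 CPM in HG (log2 fold change 0.56 ± 0.068 (SE), adjusted p = 1.78e-06). Both encode receptors of semaphorins, which guide the movement of cells and axons, and neither overlapped between the groups. Among integrin and focal adhesion genes 9 rose and 8 fell (5 without HG replicate 3 or NG replicate 1 and 5 with upper quartile scaling) of 47. The integrin chain *Itgav*, a part of vitronectin receptors, fell from 133 to 98.5 CPM (log2 fold change -0.44 ± 0.059, adjusted p = 3.61e-06).

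Cytoskeletal genes passed in both directions. In the tubulin, kinesin and dynein list 15 rose and 15 fell of 72, or 20.8% each, against 14.4% and 17.2% of protein-coding genes. The tubulin *Tubb6* had 466, 436 and 449 CPM in NG and 326, 260.1 and 303 CPM in HG (log2 fold change -0.60 ± 0.063 (SE), adjusted p = 7.4e-08). The kinesin *Kif21b* had 33.1, 34.7 and 30.6 CPM in NG and 58.3, 67.5 and 62.01 CPM in HG (log2 fold change 0.93 ± 0.074 (SE), adjusted p = 4.8e-10). Both comparisons were free of overlap, in opposite directions. The kinesin *Kif19a* rose as well (8.90 to 14.9 CPM, log2 fold change 0.74 ± 0.12, adjusted p = 5.95e-05). Actin genes had 20 higher and 22 lower (41 after length and GC correction) of 107, or 18.7% and 20.6%, near the shares of protein-coding genes. *Actb*, the most abundant gene of this list among those that passed, had 13506, 12097 and 12635 CPM in NG and 10369.9, 8757 and 10046 CPM in HG, and HG replicate 2 was the lowest (log2 fold change -0.39 ± 0.056 (SE), adjusted p = 7.85e-06). *Coro1b*, an actin-binding coronin at the leading edge, rose from 59.6 to 86.3 CPM (log2 fold change 0.53 ± 0.065, adjusted p = 8.32e-07). *Rac3*, a GTPase of the Rac family, rose from 1.54 to 3.17 CPM (log2 fold change 1.04 ± 0.25, adjusted p = 0.00277).

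**Figure D4:**
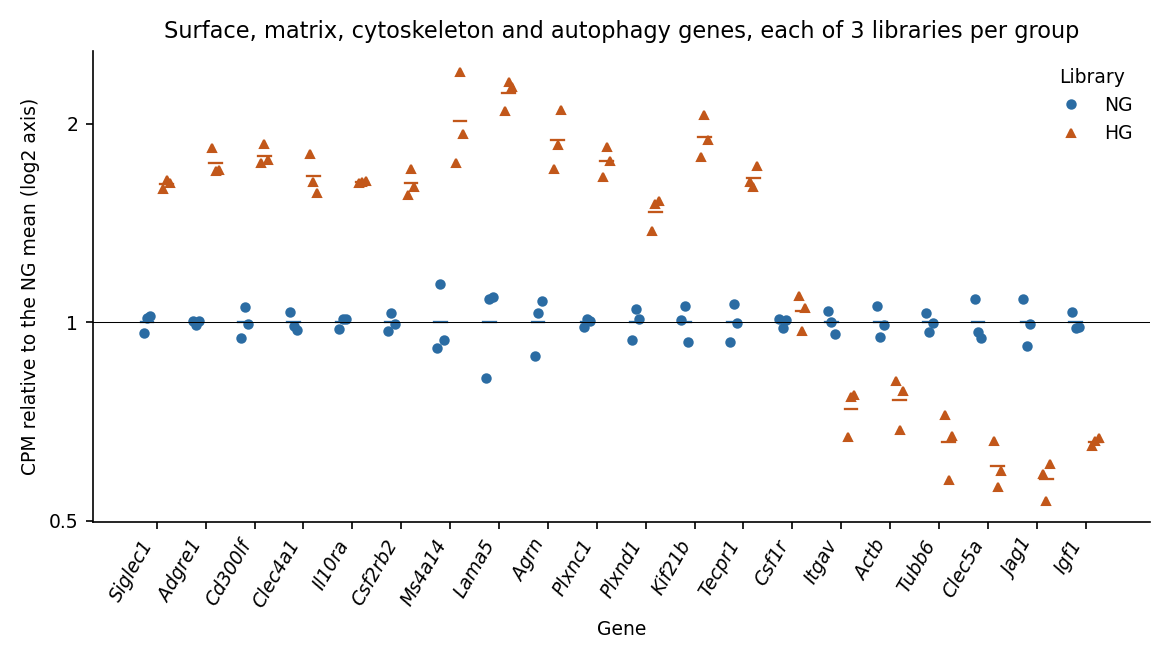
Level of 20 surface, matrix, cytoskeletal, autophagy and signalling genes in each NG library (circles) and each HG library (triangles), as CPM divided by the NG mean on a log2 axis, with group means as short lines. The 13 genes from *Siglec1* to *Tecpr1* have all HG libraries above all NG libraries, *Csf1r* overlaps, and the 6 genes from *Itgav* to *Igf1* have all HG libraries below. Lack of overlap was a condition for naming the genes that passed.

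Autophagy genes were mostly higher where they passed. Of 52 tested, 17 rose and 3 fell (5 with limma, 7 without HG replicate 1 and 7 after length and GC correction). *Tecpr1*, a factor for the fusion of autophagosomes with lysosomes, had 152, 174 and 163 CPM in NG and 266, 262 and 281 CPM in HG, with all HG libraries higher (log2 fold change 0.72 ± 0.054 (SE), adjusted p = 1.72e-10). The initiating kinase gene *Ulk1* rose from 32.6 to 46.03 CPM (log2 fold change 0.50 ± 0.090, adjusted p = 0.000188), the lipid transfer gene *Atg2a* from 62.8 to 96.3 CPM (log2 fold change 0.62 ± 0.073, adjusted p = 5.43e-07), and *Wipi1*, which binds phosphoinositides on the growing membrane, from 5.75 to 9.96 CPM (log2 fold change 0.79 ± 0.14, adjusted p = 8.48e-05). *Vamp8*, a SNARE of the fusion step, fell from 60.3 to 48.5 CPM (log2 fold change -0.31 ± 0.075, adjusted p = 0.0029). Of 42 SNARE genes 12 rose and 2 fell (6 without HG replicate 1 and 7 after length and GC correction), with *Vamp2*, a SNARE of secretory vesicles, rising from 20.7 to 29.5 CPM (log2 fold change 0.51 ± 0.099, adjusted p = 0.000372). In the mitochondrial dynamics and mitophagy list 6 rose and 3 fell of 32. The mitophagy receptor *Bnip3* rose from 3.58 to 8.04 CPM (log2 fold change 1.17 ± 0.18, adjusted p = 2.5e-05), and the kinase *Pink1*, which marks damaged mitochondria, from 15.2 to 21.3 CPM (log2 fold change 0.49 ± 0.099, adjusted p = 0.000571). Under CD200Fc the contrast for *Bnip3* had the opposite sign, with a difference of 1.71 between the contrasts.

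In the serine, glycine and folate-cycle list 4 rose and 16 fell of 36 (median -0.18). The last enzyme of serine synthesis *Psph* (63.8 to 44.9 CPM, log2 fold change -0.50 ± 0.090, adjusted p = 0.000261) and the glycine cleavage protein *Gcsh* (43.5 to 31.1 CPM, log2 fold change -0.48 ± 0.083, adjusted p = 0.000101) fell. *Amt*, another part of the glycine cleavage system, rose at a low level (1.199 to 3.28 CPM, log2 fold change 1.44 ± 0.26, adjusted p = 0.000132). In the polyamine and arginine list 5 rose and 10 fell of 26. In the branched chain amino acid list 2 rose and 2 fell of 21. *Odc1*, the first enzyme of polyamine synthesis and a target of Myc, had 115, 99.04 and 103 CPM in NG and 80.1, 65.7 and 69.7 CPM in HG, all lower in HG (log2 fold change -0.56 ± 0.069 (SE), adjusted p = 8.76e-07). *Amd1*, which supplies the aminopropyl group, fell from 53.8 to 40.2 CPM (log2 fold change -0.42 ± 0.074, adjusted p = 0.000126). *Ass1*, which makes argininosuccinate from citrulline (15.7 to 22.0 CPM, log2 fold change 0.49 ± 0.10, adjusted p = 0.000834), and the lysosomal polyamine transporter *Atp13a2* (407 to 531 CPM, log2 fold change 0.38 ± 0.054, adjusted p = 6.85e-06) rose.

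NAD and tryptophan genes had 6 of 24 higher (3 without HG replicate 2 or NG replicate 3) and 0 lower. *Bst1*, an NAD-consuming ectoenzyme (1.86 to 4.06 CPM, log2 fold change 1.12 ± 0.27, adjusted p = 0.00275), and the ADP-ribosyltransferases *Parp3* (21.7 to 35.3 CPM, log2 fold change 0.70 ± 0.083, adjusted p = 5.37e-07) and *Parp4* (21.3 to 33.9 CPM, log2 fold change 0.67 ± 0.12, adjusted p = 0.000236) rose. In the phospholipid list 22 rose and 9 fell (5 without HG replicate 2 and 17 after length and GC correction) of 80. *Plcb2*, the phospholipase C that chemoattractant receptors activate, had 165, 181 and 169 CPM in NG and 241, 253 and 239.8 CPM in HG (log2 fold change 0.51 ± 0.054 (SE), adjusted p = 7.13e-08). The diacylglycerol kinase *Dgka* rose from 1.38 to 3.02 CPM (log2 fold change 1.13 ± 0.29, adjusted p = 0.00487).

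Of 36 eicosanoid genes 9 rose (4 without NG replicate 1 and 5 without HG replicate 2 or NG replicate 3) and 4 fell (2 without HG replicate 2 or NG replicate 1 or NG replicate 2 or NG replicate 3 and 2 without the low-count filter). *Pla2g4a*, the phospholipase that releases arachidonic acid, had 101, 99.04 and 108 CPM in NG and 65.4, 60.5 and 66.1 CPM in HG, all lower in HG (log2 fold change -0.68 ± 0.061 (SE), adjusted p = 4.72e-09). *Ptgs2*, the inducible cyclooxygenase, was near 1 CPM and fell (1.57 to 0.800 CPM, log2 fold change -0.97 ± 0.34, adjusted p = 0.0388, lost in 7 of the 16 alternatives at an adjusted p of 0.0517 to 0.13, among them without HG replicate 1 or HG replicate 2 or HG replicate 3 or NG replicate 1 or NG replicate 2 or NG replicate 3). The peroxisomal oxidase *Acox3* rose (84.01 to 133 CPM, log2 fold change 0.66 ± 0.056, adjusted p = 1.57e-09), while *Lpl*, which frees fatty acids from lipoproteins, fell from 1145 to 795 CPM (log2 fold change -0.53 ± 0.053, adjusted p = 3.96e-08).

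Iron genes moved in both directions, with 9 higher (4 without HG replicate 1) and 10 lower (16 after length and GC correction) of 50. *Cp*, the ferroxidase ceruloplasmin, rose from 3.66 to 9.40 CPM (log2 fold change 1.36 ± 0.17, adjusted p = 7.56e-07), and *Lcn2*, which binds bacterial siderophores, from 14.6 to 33.5 CPM (log2 fold change 1.198 ± 0.11, adjusted p = 7.18e-09). *Fth1*, the heavy chain of the iron store ferritin, had 6940.2, 6828 and 7210.1 CPM in NG and 8918, 8485 and 8966 CPM in HG (log2 fold change 0.33 ± 0.068 (SE), adjusted p = 0.0011). The groups did not overlap. The haem synthesis enzyme *Alad* fell (66.5 to 46.9 CPM, log2 fold change -0.50 ± 0.090, adjusted p = 0.000298). Among zinc and copper genes, of which 6 rose and 8 fell of 28 (5 without NG replicate 1 for those that fell), the zinc importer *Slc39a4* rose (15.4 to 25.8 CPM, log2 fold change 0.74 ± 0.13, adjusted p = 0.000123) and the metallothionein *Mt1* fell (141 to 102 CPM, log2 fold change -0.47 ± 0.069, adjusted p = 1.39e-05).

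Transporters as a class had 42 higher and 43 lower of 221. Among glucose and sugar transporters 3 of 16 rose and 1 fell. *Slc2a6*, a hexose transporter of lysosomes in macrophages, had 113, 126 and 123 CPM in NG and 208, 184 and 199 CPM in HG (log2 fold change 0.71 ± 0.061 (SE), adjusted p = 2e-09). *Slc2a1*, the main glucose importer GLUT1, had 108, 108 and 118 CPM in NG and 129, 113 and 122 CPM in HG and did not pass (log2 fold change 0.13, 95% interval 0.0084 to 0.25). The mitochondrial uncoupling carrier *Ucp2* rose (266 to 361 CPM, log2 fold change 0.44 ± 0.058, adjusted p = 2.75e-06), and *Mpc2*, a subunit of the mitochondrial pyruvate carrier, fell (25.7 to 19.1 CPM, log2 fold change -0.42 ± 0.10, adjusted p = 0.00313). *Slc7a5*, which imports large neutral amino acids, fell from 236 to 179 CPM (log2 fold change -0.40 ± 0.059, adjusted p = 1.54e-05). Under CD200Fc *Slc7a5* passed in the opposite direction. ABC transporters had 11 higher and 7 lower of 34, with the phospholipid exporter *Abca7* rising from 47.7 to 77.3 CPM (log2 fold change 0.69 ± 0.072, adjusted p = 5.28e-08) and the nucleotide exporter *Abcc5* from 36.7 to 60.4 CPM (log2 fold change 0.72 ± 0.071, adjusted p = 2.52e-08). Ion channels and pumps had 18 higher and 13 lower of 86. The cation channels *Trpm4* (16.5 to 32.7 CPM, log2 fold change 0.98 ± 0.11, adjusted p = 3.95e-07) and *Trpm2* (3.24 to 5.75 CPM, log2 fold change 0.83 ± 0.20, adjusted p = 0.00306) and the calcium channel *Cacna1b* (14.2 to 22.9 CPM, log2 fold change 0.69 ± 0.11, adjusted p = 5.64e-05) rose.

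Among genes listed as p53 targets 8 rose (5 without NG replicate 1) and 11 fell of 40. The cyclins named next are given for the size of their change, not as targets of p53. Whether p53 acts on them was not tested. *Ccng2*, a cyclin found in resting cells, had 7.46, 6.85 and 6.01 CPM in NG and 17.4, 14.7 and 15.05 CPM in HG (log2 fold change 1.22 ± 0.15 (SE), adjusted p = 6.87e-07). *Ccnd1*, the cyclin that drives entry into the cycle, had 263, 245 and 236 CPM in NG and 163, 148 and 151 CPM in HG (log2 fold change -0.69 ± 0.067 (SE), adjusted p = 2.73e-08). Neither gene overlapped between groups, and they moved in opposite directions. Under CD200Fc the contrast for *Ccng2* had the opposite sign, with a difference of 1.56 between the contrasts. The p53-induced nuclease *Aen* fell (92.7 to 59.7 CPM, log2 fold change -0.63 ± 0.065, adjusted p = 5.36e-08), as did the mitochondrial nuclease *Endog* (23.03 to 13.4 CPM, log2 fold change -0.78 ± 0.13, adjusted p = 5.23e-05). The largest fall among named genes of at least 1 CPM was in *Dmpk*, the myotonic dystrophy kinase, with 19.3, 16.7 and 13.9 CPM in NG and 3.70, 3.98 and 4.61 CPM in HG (log2 fold change -2.02 ± 0.36 (SE), adjusted p = 0.00374). Its contrast under CD200Fc had the opposite sign, with a difference of -2.64 between the contrasts.

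Gene types other than protein-coding leaned by type. Of 918 antisense genes 83 rose and 7 fell, of 568 lincRNA genes 67 rose and 12 fell, and of 1103 loci of the type TEC, which await experimental evidence, 117 rose and 6 fell. Their medians were 0.38, 0.30 and 0.43. Of 2589 processed pseudogenes 37 rose and 217 fell. How reads that match several places were counted is not stated, so levels of genes known to have processed copies, such as *Actb*, *Eef1a1*, *Fth1* and *Set*, are uncertain to that extent. The counting is not stated to use strand either, so reads of antisense genes cannot be told apart from those of the partner gene. *Malat1*, a long noncoding RNA that stays in the nucleus, had 4393, 4985 and 4615 CPM in NG and 7759.8, 9134 and 7920.1 CPM in HG. All HG libraries were higher (log2 fold change 0.83 ± 0.057 (SE), adjusted p = 3.35e-11). *Firre*, a nuclear RNA of the X chromosome, rose from 20.7 to 36.6 CPM (log2 fold change 0.82 ± 0.091, adjusted p = 1.87e-07). *Neat1*, the scaffold of paraspeckles, had 634, 792 and 726 CPM in NG and 872, 1119 and 1065 CPM in HG (log2 fold change 0.51 ± 0.14 (SE), adjusted p = 0.0252, lost in 5 of the 16 alternatives at an adjusted p of 0.05 to 0.103, among them without HG replicate 2 or HG replicate 3 or NG replicate 1 or NG replicate 3). In the list of 16 tested long noncoding RNAs 8 rose (2 without NG replicate 1, 3 without HG replicate 3, 4 without HG replicate 2 and 5 without NG replicate 3) and 0 fell. *Snhg5*, a host transcript of small nucleolar RNAs, fell (16.1 to 11.02 CPM, log2 fold change -0.55 ± 0.10, adjusted p = 0.000216). *Rn7sk*, a nuclear RNA, went the other way and did not pass. It had 5121, 3623 and 3594 CPM in NG and 3847, 1929 and 1821 CPM in HG (log2 fold change -0.70). Of 41 snRNA genes 0 rose and 4 fell, and of 103 snoRNA genes 0 rose and 4 fell. Whether the higher level of nuclear transcripts such as *Malat1* took part in the other differences was not tested.

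**Figure D5:**
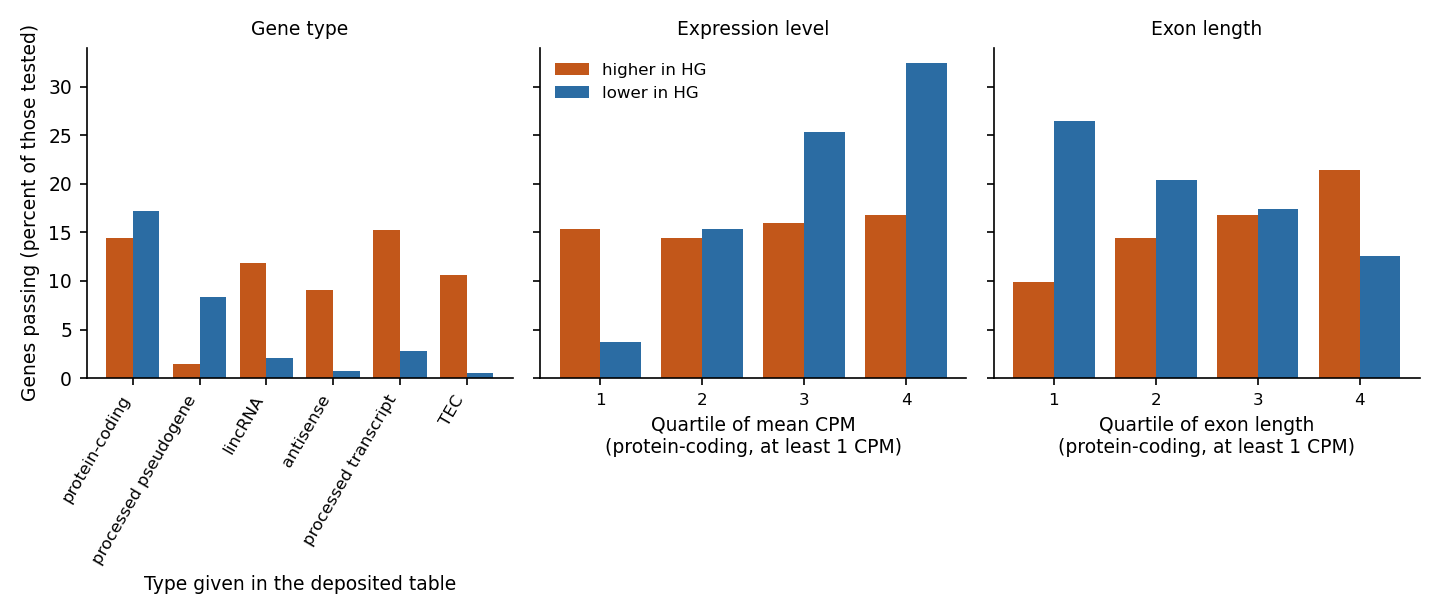
Percent of tested genes that passed higher in HG (orange) or lower in HG (blue), by gene type (left), by quartile of mean CPM (middle) and by quartile of exon length (right, both for protein-coding genes of at least 1 CPM). The noncoding types drawn have more higher than lower genes, processed pseudogenes the reverse, and the share lower falls from 26.5% in the shortest to 12.6% in the longest exon quartile.

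With CD200Fc present the same change of glucose, in 6 libraries that are not in HG vs NG, gave 1593 passing genes of 19182 (8.30%). That count rests on single libraries: it was 277 without HG+CD200Fc replicate 2, 344 without NG+CD200Fc replicate 3, 646 without HG+CD200Fc replicate 3 and 665 without NG+CD200Fc replicate 1, and 1048 after length and GC correction. Of the 4720 genes that passed without CD200Fc, 3625 had the same sign under it, 697 passed in the same direction and 61 passed in the opposite one. The test of the difference between the glucose contrasts called 1381 genes (7.20%). Nuclear transport had 8 of 56 members with such a difference, mitochondrial import 2 of 39, and the lectin list 13 of 44. *Timm10*, *Chchd4* and *Tomm20* passed in both contrasts, with log2 fold changes under CD200Fc of -0.40, -0.28 and -0.24. *Mxd4* had a log2 fold change of 0.19 ± 0.085 under CD200Fc, and *Siglec1* one of 0.40 ± 0.052.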

How the data were processed

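RNA sequencing libraries of 12 samples in 4 groups of 3 were deposited as a table of raw counts per gene, together with the authors' table of comparisons, which gives log2 fold changes and p-values. Per the submitters' processing notes, the authors used bcl2fastq, STAR, Salmon, featureCounts of Subread, edgeR and limma. The sources used here do not give the annotation release, the strand setting or the treatment of reads that match several places. Of 55774 lines of the count table, 287 repeats of a gene were dropped. The authors' log2 fold changes and p-values, as deposited, were used only to count shared calls.

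The counts were tested with edgeR 4.0.16 (R 4.3.3), as a quasi-likelihood fit with robust dispersion on the 4 group means over all 12 libraries, after filterByExpr and TMM normalization. The call rule was a Benjamini-Hochberg adjusted p under 0.05 over 19182 genes. glmTreat tested against 1.2-fold. Standard errors (SE) are on the log2 scale, from the fold change and its F statistic. The code was tested on simulated data. Alternatives used DESeq2 1.42.0, limma 3.58.1, other scalings and filters, the 6 libraries alone, a replicate block, an offset for exon length and GC content (GENCODE M21, which holds 99.5% of the gene identifiers), and leaving out each library. Deviations of replicates with the same number had correlations of 0.196, 0.187 and -0.00092 in HG and NG. Since not every pair deviated together, the numbers were not taken as pairs. Whether they mark a shared batch or culture is not stated. Totals of 21454087 to 31905649 counts a library make counting error small beside the spread between libraries, except for genes of a few CPM.

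The 96 gene lists and the genes printed were chosen with earlier results of these data known. Of 4176 names in the lists 4156 matched. Genes printed come from a rule: up to 6 members of a list that passed at a mean of at least 1 CPM without overlap, by size of change, up to 3 abundant members that did not pass, and genes with extreme changes. Promoter windows and sequences are from RefSeq (GRCm38.p6). Some genes are not reported here.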

Additional observations from a re-analysis of the deposited data

Results flagged for a closer look

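Of the 186 genes printed in the report and among the other observations, 80 had a glucose contrast without CD200Fc that differed from the one with CD200Fc, by the test of that difference itself in the edgeR fit (Benjamini-Hochberg adjusted p under 0.05 over all 19182 genes, passed by 7.20% of them). *Lars2* and *Rn7sk* are not counted among the 186. The genes were printed for passing without CD200Fc, a choice that favours a larger contrast there. The contrast under CD200Fc was smaller in size or opposite in sign in all 80, and opposite in sign in 25. The values are the log2 fold change of HG over NG minus that under CD200Fc. For genes of translation, RNA, folding and the nuclear lamina this difference was -0.65 for *Hnrnpab*, -0.27 for *Ran*, -0.39 for *Ahsa1* and -0.43 for *Lmnb1*. Chromatin genes had differences of 0.70 for *Kdm5b*, and -0.80 for *Epop*, -0.34 for *Prmt1* and -0.40 for *Set*. Among transcription factors the values were 0.83 for *Mxd4*, 0.47 for *Thra*, 0.61 for *Rarg*, 0.80 for *Dbp*, 0.45 for *Klf3* and 0.44 for *Klf7*, and -0.53 for *Cebpa*, -1.18 for *Etv4*, -1.07 for *Id1* and -0.60 for *Tfap4*. Receptors and other surface genes had 0.81 for *Adgre1*, 0.97 for *Cd300lf*, 0.72 for *Clec4a1*, 0.54 for *Csf2rb2*, 1.15 for *Fpr1*, 0.68 for *Il10ra*, 1.11 for *Ms4a14* and 0.30 for *Siglec1*, and -0.54 for *Clec5a* and -0.54 for *Tnfrsf12a*. For matrix, adhesion and cytoskeletal genes the difference was 0.70 for *Agrn*, 0.74 for *Lama5*, 0.87 for *Plxnc1*, 0.52 for *Coro1b* and 0.61 for *Kif21b*, and -0.41 for *Itgav* and -0.46 for *Tubb6*. Signalling genes had values of 0.43 for *Pde1b*, 0.36 for *Pik3r5* and 0.89 for *Rras*, and -0.31 for *Igf1*, -0.82 for *Jag1* and -0.51 for *Map3k20*. The autophagy and mitophagy genes differed by 1.71 for *Bnip3*, 0.52 for *Pink1*, 0.51 for *Tecpr1* and 0.64 for *Wipi1*. In metabolism the differences were 0.79 for *Acox3*, 1.42 for *Amt*, 0.51 for *Parp3* and 0.41 for *Plcb2*, and -0.47 for *Odc1*, -0.66 for *Pla2g4a* and -0.37 for *Lpl*. Iron and transport genes had differences of 1.41 for *Cp*, 1.16 for *Lcn2*, 0.34 for *Abca7*, 0.65 for *Abcc5*, 0.57 for *Slc2a6*, 0.70 for *Trpm4* and 0.43 for *Ucp2*, and -0.70 for *Slc7a5*. The remaining genes differed by 1.56 for *Ccng2*, 0.64 for *Firre* and 0.57 for *Malat1*, and -0.55 for *Ccnd1*, -0.62 for *Aen*, -0.70 for *Endog* and -2.64 for *Dmpk*. Among genes named in the marker check and the other observations the values were 0.46 for *Apaf1*, 0.37 for *Birc3*, 0.72 for *Ebi3*, 2.93 for *Il1a*, 0.43 for *P4hb*, 0.58 for *Psap* and 0.62 for *Vwf*, and -0.35 for *Cltb*, -0.34 for *Edem1*, -0.91 for *Flt1*, -0.48 for *Slc16a10*, -0.43 for *Txnrd1* and -0.69 for *Zfp36l2*. Of the 25 with opposite sign, *Flt1* (log2 fold change 0.34 ± 0.062, adjusted p = 0.00232), *Slc7a5* (0.30 ± 0.059, adjusted p = 0.00334) and *Zfp36l2* (0.32 ± 0.070, adjusted p = 0.00791) also passed under CD200Fc by edgeR's quasi-likelihood test, and the other 22 did not.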

How the results depend on the processing

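Over 16 alternatives for HG vs NG the count of genes passing stayed within 1.5 times of the reported 4720, from 4616 with upper quartile scaling to 5865 with limma, 4966 with DESeq2, and 3326 to 5020 when 1 library was left out. Of 579 named genes that passed, 439 passed in all alternatives and 0 changed sign, and of the 177 that passed and are printed, 166 passed in all. Leaving out 1 library gave 1447 to 2078 genes higher, with 1447 without NG replicate 1 against 2244, and 1832 to 2942 lower. The count beyond 1.2-fold, 1075, was 600 with DESeq2 and 592 to 1380 with 1 library left out, the lowest without NG replicate 1 and 697 without HG replicate 2. The contrast under CD200Fc, 1593, was 1048 after removal of the exon length and GC trend, 2597 with limma, and 277 to 2288 with 1 library left out. The difference of the contrasts gave 974 to 1505 with 1 left out. The cause of these moves was not tested, other than that fewer libraries were fitted.

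Of the passing genes 47.5% were higher, against 35.0% after removal of the exon length and GC trend, which gave 1868 higher and 3474 lower, and 53.9% with upper quartile scaling. Among genes of at least 1 CPM, the median shift of a gene's log2 fold change was 0.0298 with upper quartile scaling. It was -0.00925 with DESeq2 size factors and -0.0519 after removal of the exon length and GC trend. Of 47 list counts of 10 or more, 18 moved by over 1.5 times under some alternative.

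Same-numbered replicates did not deviate together in every pair (in HG and NG 0.196, 0.187 and -0.00092, in the CD200Fc groups 0.0349, 0.167 and 0.0281). HG replicates 1 and 2 each correlated best with the NG replicate of their number, and HG replicate 3 with NG replicate 2 (0.0321). These values do not settle whether same-numbered samples share a batch or culture, which is not stated. With the replicate block 5258 genes passed, 2463 higher and 2795 lower. For genes of a few CPM, such as *Ptgs2* and *Ciart*, depth limits the precision.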

Other observations

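Gene groups of secretion, sugar chains and quality control, not described above, were mixed (24.6% of all genes passed). The genes named in these paragraphs were chosen after their values were seen. Of 37 translocon genes 13 fell (7 without HG replicate 2 or NG replicate 1 and 8 without HG replicate 3 or NG replicate 3) and 3 rose, with *Srp9*, a subunit of the signal recognition particle, falling from 64.3 to 52.1 CPM (log2 fold change -0.30 ± 0.078, adjusted p = 0.00533). Vesicle coat genes had 11 of 60 lower (5 without HG replicate 2) and 6 higher (3 without HG replicate 3 or NG replicate 3 and 3 after length and GC correction). The clathrin light chain *Cltb* had 150.3, 146 and 143 CPM in NG and 109, 93.2 and 107 CPM in HG, all lower in HG (log2 fold change -0.50 ± 0.059, adjusted p = 4.18e-07). In the list of disulfide isomerases and degradation from the endoplasmic reticulum 10 of 42 rose (6 without HG replicate 1 or NG replicate 3 and 6 after length and GC correction) and 8 fell (4 without HG replicate 2, 5 without NG replicate 3 and 5 with upper quartile scaling). The isomerase *P4hb* rose from 547 to 693 CPM (log2 fold change 0.34 ± 0.055, adjusted p = 4.26e-05), and *Edem1*, which hands misfolded glycoproteins to degradation, fell from 321 to 252 CPM (log2 fold change -0.35 ± 0.049, adjusted p = 6.2e-06). Sphingolipid genes had 8 higher and 8 lower of 50. *Psap*, the precursor of the saposins that present sphingolipids to lysosomal enzymes, had 1539, 1482 and 1561 CPM in NG and 2088, 2036 and 2079 CPM in HG (log2 fold change 0.44 ± 0.048, adjusted p = 1.8e-07). The groups did not overlap.

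Among secreted cytokines and growth factors 9 of 49 rose and 5 fell (2 without NG replicate 1, 3 without HG replicate 3 and 10 after length and GC correction). *Ebi3*, the shared chain of the cytokines IL-27 and IL-35, had 40.9, 37.4 and 40.9 CPM in NG and 66.4, 56.6 and 62.3 CPM in HG, all higher in HG (log2 fold change 0.64 ± 0.075, adjusted p = 4.41e-07). *Il1a*, an alarm cytokine, rose at a low level, from 0.877 to 2.63 CPM (log2 fold change 1.57 ± 0.38, adjusted p = 0.00272). *Tgfb1*, which maintains microglial identity, did not pass (log2 fold change 0.13, 95% interval -0.012 to 0.27). In the nutrient-sensing list of mTORC1 10 of 53 rose (4 without NG replicate 1, 5 after length and GC correction and 6 without HG replicate 3) and 5 fell (8 without HG replicate 1 and 11 after length and GC correction). *Eif4ebp1*, a translation repressor that mTORC1 switches off, fell from 80.3 to 63.2 CPM (log2 fold change -0.35 ± 0.068, adjusted p = 0.000441). In the list of RNA decay 7 of 51 rose (4 without HG replicate 2) and 9 fell, with *Zc3h12a*, the nuclease Regnase-1 that degrades cytokine messages, rising (82.5 to 107 CPM, log2 fold change 0.37 ± 0.063, adjusted p = 7.7e-05) and *Zfp36l2*, which binds AU-rich elements, falling (314 to 243 CPM, log2 fold change -0.37 ± 0.070, adjusted p = 0.000397). Selenoproteins had 3 of 24 higher and 6 lower (3 without HG replicate 2). *Txnrd1*, the cytosolic thioredoxin reductase, fell from 398 to 303 CPM (log2 fold change -0.39 ± 0.049, adjusted p = 1.21e-06), and the secreted peroxidase *Gpx3* rose from 1.51 to 3.81 CPM (log2 fold change 1.33 ± 0.28, adjusted p = 0.000769).

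Amino acid carriers had 10 of 33 lower and 5 higher (2 without HG replicate 1 or NG replicate 1, 3 without HG replicate 3 or NG replicate 2 or NG replicate 3 and 3 after length and GC correction), and *Slc16a10*, a carrier of aromatic amino acids, had 189, 169 and 180.2 CPM in NG and 129.9, 124 and 129.9 CPM in HG, all lower in HG (log2 fold change -0.49 ± 0.056, adjusted p = 3.04e-07). In the list of the BCL2 family and caspases 8 of 48 rose (4 without HG replicate 1 and 5 without NG replicate 3) and 6 fell (10 after length and GC correction), with the caspase inhibitor *Birc3* (38.1 to 57.1 CPM, log2 fold change 0.58 ± 0.077, adjusted p = 2.45e-06) and *Apaf1*, the scaffold of the apoptosome (44.7 to 60.4 CPM, log2 fold change 0.43 ± 0.087, adjusted p = 0.00059), rising and *Bid*, which carries death receptor signals to mitochondria, falling (89.6 to 71.2 CPM, log2 fold change -0.33 ± 0.059, adjusted p = 0.000136). DNA repair genes had 14 of 96 lower (8 without NG replicate 1 and 23 after length and GC correction) and 7 higher (3 without HG replicate 2 or NG replicate 1 or NG replicate 3 and 4 without HG replicate 3) (12.9% of all genes fell and 11.7% rose). By name families, 31 of 42 nucleolar proteins fell and 1 rose, 17 of 50 RNA helicases fell and 7 rose, and 16 of 45 tripartite motif proteins rose and 5 fell. Of 340 zinc finger proteins of the Zfp name 28 rose (8.24%) and 15 fell (4.41%), both below the shares of all genes.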
